A study of Mus musculus with 55 samples.

Results

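The 6 genes described here encode the zona pellucida of the mouse egg and the molecules through which egg and sperm meet, namely Zp1, Zp2, Zp3, Astl, Izumo1r and Cd9. They were chosen by name, with earlier results of these data known, from the 51734 genes in each single-oocyte count table, and all 6 passed the filter on low counts in every fit. The 52 libraries were each made from 1 oocyte: 18 wild-type fully grown oocytes (FGOs), 8 FGOs of the Dnmt3L mutant (Dnmt3a+/+, Dnmt3L D124A/D124A), 8 of the Dnmt3a mutant (Dnmt3a ADA/ADA, Dnmt3L+/+), 8 of the double mutant (Dnmt3a ADA/ADA with Dnmt3L D124A/D124A) and 10 wild-type MII oocytes. Both alleles replace aspartic acid with alanine in the ADD domain, the part of each protein that binds histone H3 unmethylated at lysine 4, so the mutants are called Dnmt3L-ADD and Dnmt3a-ADD below. Each line was bred from a gene-edited male on a mostly C57BL/6J background, so every cell of the ovary held the mutation, and FGOs came from females of 10 to 12 weeks by needle puncture of the ovaries with the cumulus cells washed off. The methods describe MII oocytes, in the account of in vitro fertilization, as taken from the oviducts of adult females given inhibin antiserum and chorionic gonadotropin, in an age range other than that of the FGO donors, so maturation, hormone treatment, age and collection cannot be told apart in that comparison. The study addresses what the ADD domains do in germ cells, and the comparisons below ask whether the fertilization genes of the egg differ between genotypes and after maturation to MII. Counts per gene do not show an amino acid substitution, so the genotype labels could not be checked from them.

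The zona pellucida is the glycoprotein coat that the growing oocyte secretes around itself. In the mouse ZP2 and ZP3 form its filaments and ZP1 cross-links them, and sperm bind at the ZP2 protein. Astl encodes ovastacin, a protease stored in cortical granules that cleaves ZP2 after fertilization so that further sperm no longer bind. Izumo1r encodes JUNO, the GPI-anchored receptor on the egg membrane for sperm IZUMO1, and Cd9 encodes a tetraspanin of the egg's microvilli that is needed for fusion with the sperm. FIGLA, a basic helix-loop-helix factor of the oocyte, switches on the zona genes from E-boxes in their promoters together with the product of Tcf3.

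RefSeq promoter windows (GRCm38.p6, that is mm10) were found for 4 of the 6 members. The 250 bases before the start are printed for Zp3 (chr5:135979855-135980104, plus strand) and for the second of the 2 Astl starts (chr2:127341386-127341635, plus strand). Both carry several E-boxes, as does the Cd9 window, which is not printed. Capitals mark every match to CANNTG, which reads the same on both strands.
Zp3: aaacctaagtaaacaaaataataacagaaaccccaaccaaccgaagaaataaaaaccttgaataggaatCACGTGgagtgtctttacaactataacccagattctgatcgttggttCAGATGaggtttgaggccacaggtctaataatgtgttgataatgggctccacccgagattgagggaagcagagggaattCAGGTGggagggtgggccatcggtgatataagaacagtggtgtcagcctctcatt
Astl: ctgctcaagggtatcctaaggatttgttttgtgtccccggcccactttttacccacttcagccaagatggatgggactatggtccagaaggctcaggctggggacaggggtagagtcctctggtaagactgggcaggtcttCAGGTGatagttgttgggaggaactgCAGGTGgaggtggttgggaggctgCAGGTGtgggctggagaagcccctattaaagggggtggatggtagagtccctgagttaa
Each of these windows held 3 matches, and the match nearest the start began 55 bases before it in Zp3 and 59 bases before it in Astl, where all 3 read CAGGTG. The other Astl start (chr2:127338389-127338638) held 0 matches. The Cd9 window (chr6:125494761-125495010, minus strand) held 3, the nearest beginning 25 bases before the start, and the Izumo1r window (chr9:14903768-14904017, minus strand) held 1, beginning 57 bases before it. In the gene models of the count tables the first exon of Zp3, Cd9 and Izumo1r, and an exon at this Astl start, begin inside these windows. Of all 32851 windows of the same length 66.2% held at least 1 match and 12.2% held 3 or more, so a match by itself is common. The Cd9 window was 61.6% G and C with 16 CpG dinucleotides, against 43.6% and 5 in Zp3, and the median window had 6.

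In the count tables (mm10) Zp1 lies at chr19:10914287-10920632, Zp2 at chr7:120126772-120145291, Zp3 at chr5:135980099-135988624, Astl at chr2:127338639-127357651, Izumo1r at chr9:14885814-14903949 and Cd9 at chr6:125460266-125494791. Cd9 shares exon sequence with Gm26728 on the opposite strand, which had a mean of 2.40 counts per library, and the other 5 members overlap no listed gene. Totals ran from 7832458 to 23739871 counts per library, and the lowest count of any member in any library was 342. Values are CPM, that is counts relative to the library total on the usual scale of this unit, after correction by edgeR's TMM factors. The labels do not give the animal of each oocyte, so p-values measure the spread between oocytes. A lower level per cell cannot be told apart from a larger amount of other RNA, nor a higher level from a smaller amount of it. By the study's sequencing summary the libraries fall into 22 with under 80% of reads mapped and 30 with more, and this mapped class is unevenly spread: it was low in 8 and high in 10 wild-type FGOs, high in all 8 Dnmt3L-ADD FGOs, low in 3 and high in 5 Dnmt3a-ADD FGOs, low in all 8 double mutant FGOs, and low in 3 and high in 7 MII oocytes. Dnmt3L-ADD and double mutant FGOs therefore share no class, and genotype and class cannot be told apart between them.

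All 6 genes were well expressed in wild-type FGOs. Zp2 had 790.1, 1289.8 and 2007 CPM (lowest, median and highest of 18) and ranked 29th by mean CPM among all genes. Zp3 had 668, 838 and 1059 CPM, and Zp1 had 351, 474 and 648 CPM. Astl reached 160.5, 272 and 489 CPM. Izumo1r lay lower at 107, 147 and 179 CPM, and Cd9 lowest at 31.7, 41.2 and 111 CPM. Together the 6 genes took a median of 0.304% of all counts.

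Per length of exon the order changed at the top. As mean CPM per kilobase ± SD in the 18 wild-type FGOs, Zp3 stood at 638 ± 79.5, Zp2 at 504 ± 108 and Zp1 at 243.5 ± 35.9. Astl followed with 119 ± 32.6, Izumo1r with 62.1 ± 7.71 and Cd9 with 25.2 ± 10.8 on the same scale. The ranges of Zp3 and Zp2 over oocytes overlapped, but within each of the 18 oocytes Zp3 exceeded Zp2. Zp3 ranked 14th of all genes per length and Zp2 32nd. The sperm side of the encounter was close to absent, since 7 of 10 sperm genes in the tables had a median under 1 CPM and Izumo1, the ligand of JUNO, had a median of 0.

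**Figure D1:**
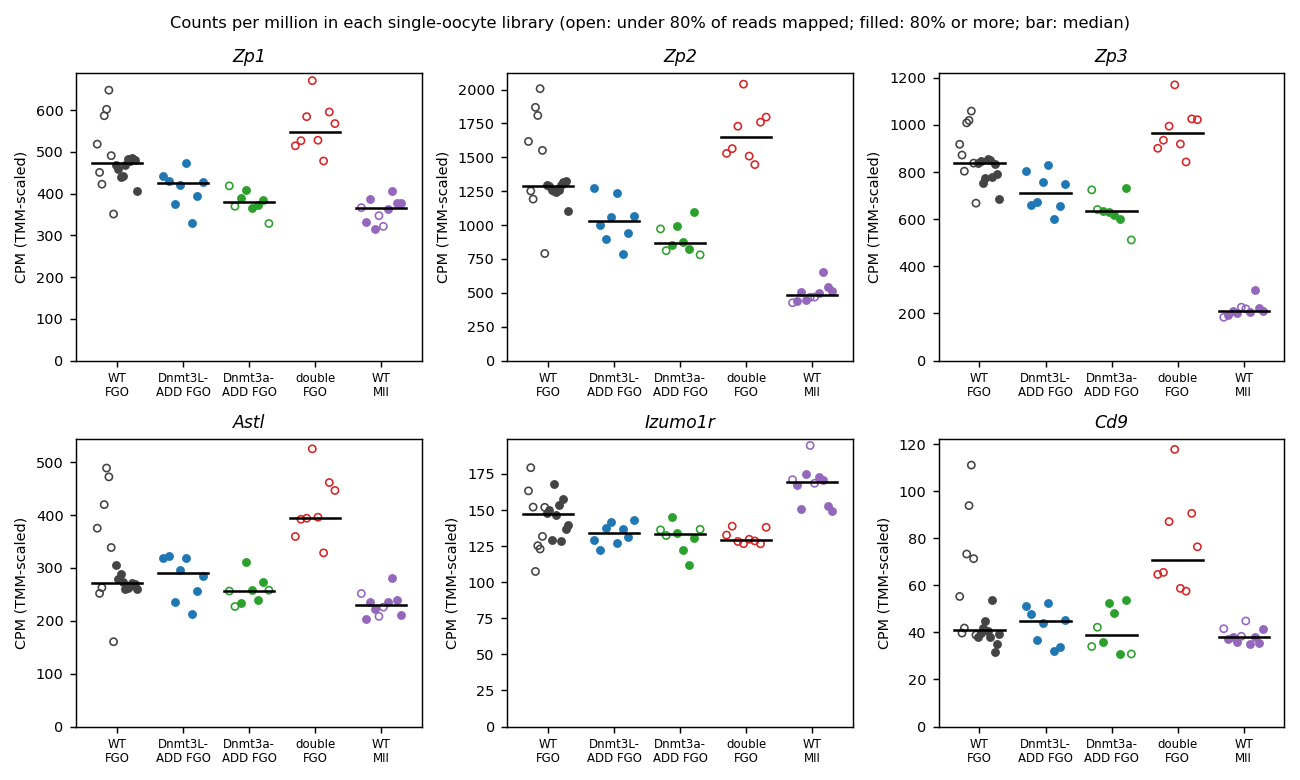
CPM of each member (y axis, linear from 0) in each of the 52 oocyte libraries by group (x axis), with open circles for libraries with under 80% of reads mapped, filled circles for the others and a bar at the median. Zp2 and Zp3 in MII lie below all FGOs, and 5 members in the double mutant lie above all single mutant FGOs.

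Spread between wild-type oocytes differed widely from gene to gene. Izumo1r and Zp3 were the steadiest, with coefficients of variation (CV) of 12.4% and 12.5%, while Zp1 had 14.7% and Zp2 21.4%. Astl varied by 27.3% and Cd9 by 42.6%. The median CV of the 2521 genes with at least 100 CPM was 11.3%, and 98.0% of those genes varied less than Astl and 95.0% less than Zp2. Counting error alone would give Zp2 a CV of 0.689% and Cd9 3.54%. It came nearest to the whole spread for Izumo1r in the double mutant, with a counting CV of 2.32% beside a total of 3.72%.

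The spread sat mainly in the 8 wild-type FGOs of the low mapped class. Their Zp2 ran from 790.1 to 2007 CPM, against 1100.6 to 1325 CPM in the 10 of the high class. Replicates 4, 5 and 6 had the 3 highest values of Zp1, Zp2, Zp3, Astl and Cd9, and the same 3 oocytes had the 3 lowest values of Izumo1r. Replicate 8 had the lowest Zp1, Zp2, Zp3 and Astl, at 351, 790.1, 668 and 160.5 CPM, and an Izumo1r level of 151.9 CPM, near the middle of the wild-type range. Within the high class the CV was 5.26% for Astl and 14.8% for Cd9, against 33.3% and 40.8% in the low class. Mean Cd9 was 65.7 ± 26.8 CPM (SD, n = 8) in the low class and 40.3 ± 5.94 CPM (SD, n = 10) in the high class. Summed markers of oocytes (Gdf9, Bmp15 and 6 others) ran from 7533 to 10690 CPM in the low class and from 8840 to 9552 CPM in the high class, and their part in the spread was not tested.

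Over all 52 oocytes 5 of the members moved together and Izumo1r ran the other way. Pearson's r of log2 CPM was 0.95 between Zp2 and Zp3, 0.89 between Zp1 and Zp2, 0.90 between Zp1 and Astl, and 0.87 between Astl and Cd9. Other pairs of these 5 were less close, down to 0.63 for Zp3 with Astl and 0.50 for Zp3 with Cd9. Izumo1r correlated negatively with each of the other 5, from -0.46 with Zp1 to -0.61 with Zp3. These values describe 52 libraries that share group differences, mapped class and scaling, so they carry no test.

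**Figure D2:**
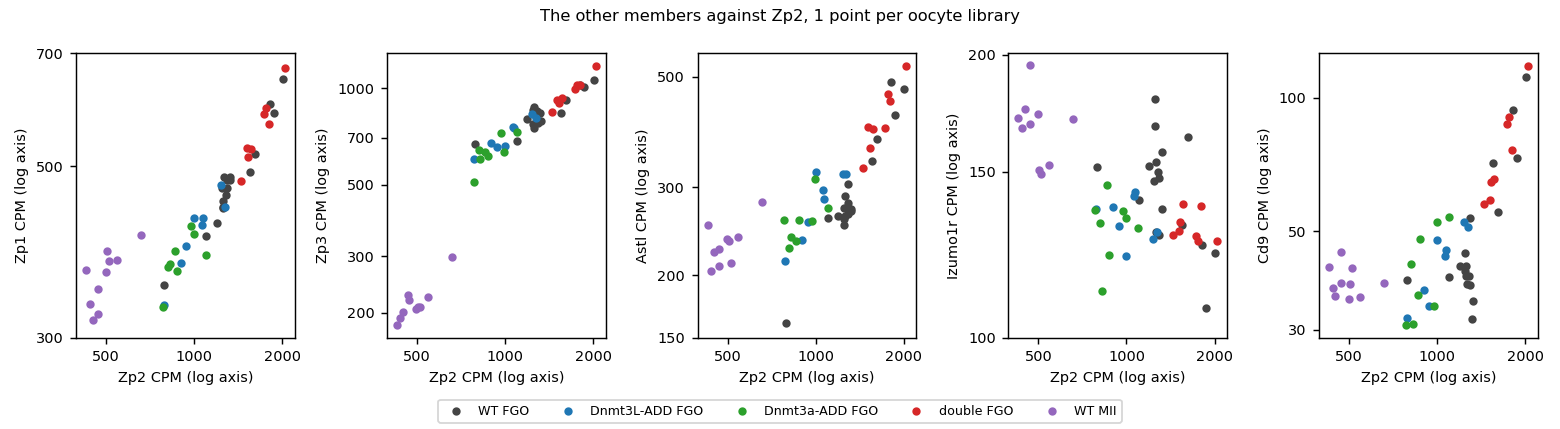
CPM of Zp1, Zp3, Astl, Izumo1r and Cd9 (y axes, log) against Zp2 CPM (x axis, log) in each of the 52 oocyte libraries, colored by group. FGOs form 1 rising band for Zp1 and Zp3, Izumo1r falls to the right, and MII oocytes stand apart at the left with Zp2 of 427 to 657 CPM.

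The genes with the most similar pattern, taken as the 3 highest r among 8314 other genes with a mean of at least 10 CPM, differed between members. For Zp2 they were Zp3, Nlrp14 (r = 0.94) and E330017A01Rik (r = 0.94). Nlrp14 also led for Zp1 (r = 0.93), followed by Dppa5a (0.92) and Alg13 (0.91). For Zp3 they were E330017A01Rik (r = 0.97) and the ribosomal protein genes Rps13 (0.97) and Rps27 (0.97). Astl was closest to Akirin1 (r = 0.94), Pank3 (0.94) and Zbtb43 (0.93), and Cd9 to Scamp5 (0.93), Lhfpl2 (0.92) and Vrtn (0.91). Izumo1r had no neighbour as close, with Zfp750 at 0.80 and Trim24 and G6pdx at 0.79.

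The largest differences of the members were those between MII oocytes and wild-type FGOs. MII is the stage at which the egg is ovulated with its zona already built. Zp3 had 184, 209 and 298 CPM in the 10 MII oocytes (lowest, median, highest), below each of the 18 wild-type FGOs. It was 3.89-fold lower (log2 fold change -1.96 ± 0.07 SE, adjusted p = 4.79e-29, edgeR). Zp2 had 427, 483 and 657 CPM in MII, again with no overlap with FGOs, and was 2.77-fold lower (-1.47 ± 0.10, adjusted p = 1.96e-18). Among all 15784 genes tested 22.6% were lower in MII and 9% were lower by over 2-fold, as Zp2 and Zp3 were. The share of all genes without overlap was not determined. Whether the libraries captured each RNA alike in FGOs and MII oocytes was not tested.

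Zp1 differed much less than its zona partners. It had 316, 365 and 407 CPM in MII, each below the median of wild-type FGOs but with overlapping ranges, a difference of -0.42 ± 0.06 on the log2 scale (adjusted p = 7.87e-07). Astl, whose protein waits in the cortical granules until fertilization, had 204, 230.3 and 281 CPM, and was lower in 9 of 10 MII oocytes than the median of FGOs (-0.40 ± 0.10, adjusted p = 0.00184). Cd9 had 35.3, 38.1 and 44.9 CPM in MII with a fold change of -0.42 ± 0.15 (adjusted p = 0.0254), and it was below the FGO median in 7 of 10. That call rested on the low-class wild-type FGOs. Against the 10 high-class FGOs alone Cd9 differed by -0.05 (adjusted p = 0.807), with mapped class as a covariate by -0.33 (adjusted p = 0.0638), and without wild-type replicate 5 or 6 by -0.34 or -0.32 (adjusted p = 0.0598 and 0.0604).

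Izumo1r was the only member with a higher CPM in MII, a level relative to the other RNA of the library. Its lowest, median and highest values were 149, 169.7 and 195 CPM, all 10 above the median of wild-type FGOs, and the difference was 0.22 ± 0.05 on the log2 scale (1.16-fold, adjusted p = 0.000925). Of all genes tested 16.5% were higher in MII. Within the low mapped class the difference was 0.34 and within the high class 0.16, with adjusted p = 0.0265 and 0.0276. Zp3 was lower by 2.08 and 1.86 within the low and the high class and Zp2 by 1.72 and 1.29, so both differences were present in each class. Astl differed by -0.23 within the high class (adjusted p = 0.0229) and by -0.58 within the low class, where it did not pass (adjusted p = 0.0708).

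**Figure D3:**
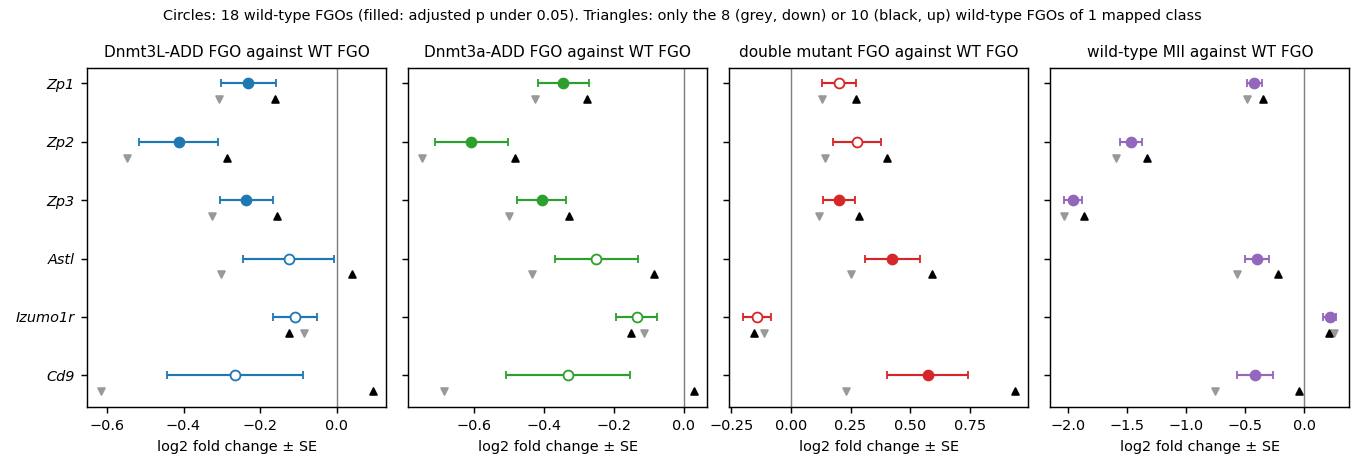
Log2 fold change with its standard error (x axes, each panel on its own scale) of the 6 members in the 3 mutants and in MII against the 18 wild-type FGOs, filled where the adjusted p was under 0.05, with triangles for the same contrast against wild-type FGOs of the low (grey) or high (black) mapped class alone. In MII Zp3 stands at -1.96 and Zp2 at -1.47, and in the double mutant the triangles of Cd9 stand at 0.23 and 0.94.

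The proportions of the counts of the zona genes to each other also differed in MII. The ratio of Zp1 to Zp2 counts per base was 0.432, 0.493 and 0.611 in wild-type FGOs (lowest, median, highest) and 0.853, 1.01 and 1.18 in MII oocytes. The ratio of Zp1 to Zp3 had a median of 0.384 in wild-type FGOs and 1.14 in MII, with all 10 MII oocytes above all 18 FGOs. Zp3 to Zp2 had a median of 1.28 in wild-type FGOs and 0.897 in MII, again with no overlap. On the log2 scale these differences were 1.03, 1.55 and -0.51, each with p = 1e-05 in a two-sided permutation test of 100000 resamples, the smallest value it can give, and p = 4e-05 adjusted over 12 tests. In FGOs Zp3 was the most abundant of the 3 per length and Zp1 the least, while in MII their mean levels were 182 (Zp2), 182 (Zp1) and 164 (Zp3) CPM per kilobase.

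**Figure D4:**
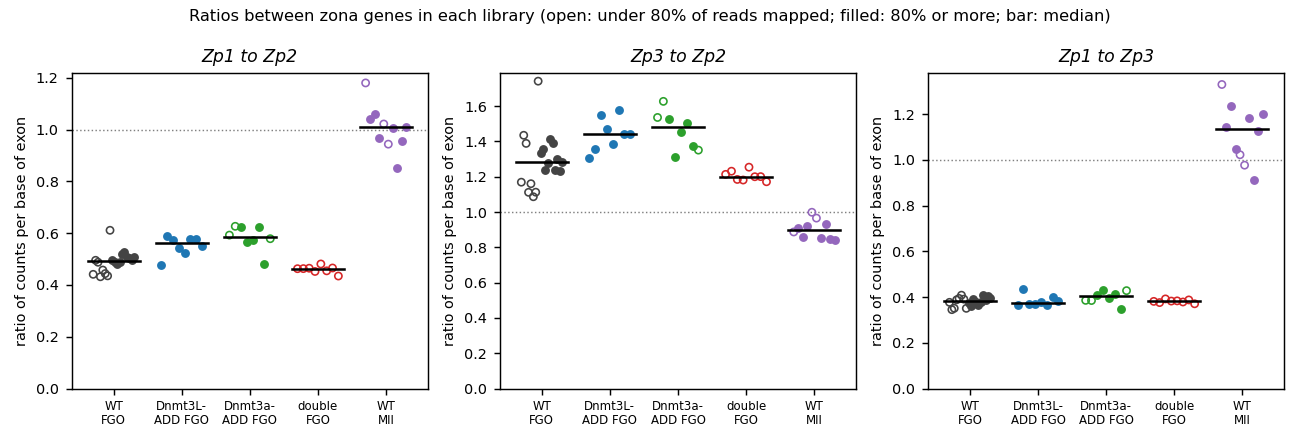
Ratio of counts per base of exon between zona genes (y axes, linear from 0, dotted line at 1) in each library by group, with open circles for libraries with under 80% of reads mapped and a bar at the median. Zp1 to Zp3 has medians between 0.375 and 0.403 in the 4 FGO groups and of 1.14 in MII.

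In Dnmt3a-ADD FGOs the 3 zona genes were lower and the 3 other members were not called against all 18 wild-type FGOs. Zp2 had 781, 865 and 1098 CPM, below the wild-type median in all 8 oocytes, and was 1.52-fold lower (log2 fold change -0.61 ± 0.10, adjusted p = 9.23e-05). Zp3 had 512, 633 and 733 CPM and was 1.32-fold lower (-0.41 ± 0.07, adjusted p = 9.78e-05), and Zp1 had 328, 379 and 419 CPM and was 1.27-fold lower (-0.34 ± 0.07, adjusted p = 0.00106). All 3 were below the wild-type median in 8 of 8 oocytes, and all 3 ranges overlapped with wild type. These 3 of 6 members stand against 7.61% of 15726 genes called lower and 8.06% called higher, and none of the 3 was among the 2.05% that also passed 2-fold. Within the high mapped class (5 against 10 oocytes) the 3 genes were lower by 0.26 (Zp1), 0.44 (Zp2) and 0.32 (Zp3), with adjusted p between 0.00134 and 0.00625, and within the low class (3 against 8) by 0.45, 0.82 and 0.52, where Zp1 did not pass (adjusted p = 0.0659).

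Of the other members in Dnmt3a-ADD FGOs, Astl had 227, 257 and 311 CPM (-0.25 ± 0.12, adjusted p = 0.147). Izumo1r had 112, 133 and 145 CPM, with 8 of 8 below the wild-type median (-0.13 ± 0.06, adjusted p = 0.111). Cd9 had 30.8, 39.1 and 53.9 CPM, with 4 of 8 below it (-0.33 ± 0.18, adjusted p = 0.202). The Cd9 difference was 0.03 against high-class wild-type FGOs (adjusted p = 0.915) and -0.69 against those of the low class, where it passed (adjusted p = 0.0078). Astl passed against the low class as well (-0.43, adjusted p = 0.0255), and Izumo1r passed against the high class (-0.15, adjusted p = 0.0301).

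In Dnmt3L-ADD FGOs the same 3 zona genes were called lower. Zp2 had 786, 1029.9 and 1274 CPM and was 1.33-fold lower (-0.41 ± 0.10, adjusted p = 0.0122). Zp3 had 603, 712 and 831 CPM (-0.24 ± 0.07, adjusted p = 0.0335), and Zp1 had 331, 424 and 472 CPM (-0.23 ± 0.07, adjusted p = 0.0466). Every one of the 8 oocytes lay below the wild-type median for each zona gene, with overlapping ranges. The background was 3.06% of genes called lower and 3.07% called higher, and none of the 3 was among the 0.655% past 2-fold. Leaving out 1 oocyte lost the Zp1 call in 14 of 26 fits (adjusted p up to 0.135) and the Zp3 call in 4, those without mutant replicate 2, 3, 6 or 7, where Zp2 was the 1 call left, and with mapped class as a covariate there were 0 calls (Zp2 -0.34, adjusted p = 0.0605). Within the high class, which holds all 8 mutant oocytes and 10 wild-type ones, Zp2 was lower by 0.29 (adjusted p = 0.0109) and Zp1 by 0.17 (adjusted p = 0.0450), and Zp3 differed by -0.16 (adjusted p = 0.0824).

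Astl (214, 291 and 322 CPM), Izumo1r (122, 134 and 143 CPM) and Cd9 (31.9, 44.8 and 52.5 CPM) were not called in Dnmt3L-ADD FGOs against all 18 wild-type FGOs, with fold changes of -0.12 ± 0.12, -0.11 ± 0.06 and -0.27 ± 0.18 and adjusted p = 0.558, 0.267 and 0.379. Cd9 differed by 0.10 from high-class wild-type FGOs and was lower than those of the low class (-0.62, adjusted p = 0.0203). Between the single mutants 0 of 6 members were called by edgeR, 1 (Zp3) had an unadjusted p under 0.05, and DESeq2 also called 0. The background there was 0.0127% of genes in either direction.

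Zp2 was lower relative to both partners in the single mutants. The ratio of Zp1 to Zp2 per length had a median of 0.562 in Dnmt3L-ADD and 0.585 in Dnmt3a-ADD FGOs against 0.493 in wild type, and the log2 differences of 0.17 and 0.25 passed the exact permutation test (adjusted p = 0.00408 and 0.000277 over 12 tests). Zp3 to Zp2 had medians of 1.44 and 1.48 against 1.28, with log2 differences of 0.16 and 0.18 (exact permutation, adjusted p = 0.0273 and 0.0191). Against low-class wild-type FGOs alone the Zp3 to Zp2 differences were 0.19 and 0.21 and did not pass (exact permutation, adjusted p = 0.0999 and 0.0870). For Dnmt3L-ADD this call was also lost without mutant replicate 3 or 6 (0.15 and 0.14, exact permutation, adjusted p = 0.0619 and 0.0681). Zp1 to Zp3 differed by 0.01 and 0.07 and did not pass with all libraries, although without Dnmt3a-ADD replicate 7 the difference there was 0.10 (exact permutation, adjusted p = 0.0143).

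Double mutant FGOs lay on the other side of wild type. Zp3 had 843, 965 and 1170.3 CPM (0.20 ± 0.07, adjusted p = 0.0440), Astl 329, 395 and 525 CPM (0.43 ± 0.12, adjusted p = 0.0147) and Cd9 57.6, 71.0 and 118 CPM (0.57 ± 0.17, adjusted p = 0.0239), and these 3 were called higher. Zp2 had 1447, 1647 and 2040.2 CPM (0.28 ± 0.10, adjusted p = 0.0595) and Zp1 had 478, 548 and 671 CPM (0.20 ± 0.07, adjusted p = 0.0518). For all 5 genes every one of the 8 oocytes was above the wild-type median, and all ranges overlapped. Izumo1r had 127, 129 and 139 CPM, below the wild-type median in 8 of 8 (-0.14 ± 0.06, adjusted p = 0.0974). Over all genes 5.51% were called higher, 6.74% lower and 1.65% past 2-fold in either direction, where 0 members fell.

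The double mutant calls depended on which wild-type oocytes were used. Against the 8 wild-type FGOs of the same low class 0 of 6 members were called, with Cd9 at 0.23, Astl at 0.25 and Zp2 at 0.14 on the log2 scale (adjusted p = 0.715, 0.535 and 0.740). Against the 10 of the high class all 6 were called, 5 higher and Izumo1r lower, with Cd9 at 0.94, Astl at 0.59 and Zp2 at 0.40. With mapped class as a covariate 0 were called. The share of all genes called is not given for these settings, so these counts cannot be set against it. Leaving out 1 oocyte lost the Zp3 call in 18 of 26 fits (adjusted p up to 0.145), the Cd9 call in 3 and the Astl call in 1, and it moved the count between 0 (without double mutant replicate 4, which had the highest Zp1, Zp2, Zp3, Astl and Cd9 of its group) and 6 (without wild-type replicate 4). It was 1 without double mutant replicate 3 or 7, and 5 without double mutant replicate 6 or wild-type replicate 1, 5 or 6. The share of all counts on the 6 genes had a median of 0.382% in the double mutant, 0.368% in low-class and 0.303% in high-class wild-type FGOs.

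Against the single mutants the double mutant was higher for 5 members. Zp1, Zp2, Zp3, Astl and Cd9 had no overlap between the 8 double mutant and the 8 Dnmt3a-ADD oocytes. The share of all genes without overlap was not determined, here or for Dnmt3L-ADD below. By edgeR 5 of 6 members were called higher, against 16% of all genes. Zp2 was 1.84-fold (0.88 ± 0.12, adjusted p = 3.12e-06), Cd9 1.87-fold (0.91 ± 0.21, adjusted p = 0.00124), Astl 1.60-fold (0.67 ± 0.14, adjusted p = 0.000493), Zp3 1.52-fold (0.61 ± 0.08, adjusted p = 2.51e-06) and Zp1 1.46-fold higher (0.55 ± 0.08, adjusted p = 2.28e-05). With mapped class as a covariate 4 of the 5 remained past the threshold and Cd9 did not (0.61, adjusted p = 0.0619). Among the low-class oocytes alone (8 against 3) 4 passed as well, and Astl did not (0.72, adjusted p = 0.0546).

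The same 5 genes did not overlap between double mutant and Dnmt3L-ADD oocytes, and all 5 were called higher, against 12.8% of all genes. Their fold changes were 0.43 (Zp1), 0.69 (Zp2), 0.44 (Zp3), 0.55 (Astl) and 0.84 (Cd9), with adjusted p between 0.000197 and 0.00467. These groups share no mapped class, and with the class as a covariate 0 were called, the differences being 0.34 (Zp3 and Astl) to 0.54 (Zp2). Izumo1r differed by -0.01 ± 0.07 from Dnmt3a-ADD and by -0.03 ± 0.07 from Dnmt3L-ADD FGOs (adjusted p = 0.938 and 0.753). By mean level the other 5 members ran from the single mutants, which did not differ beyond their spread, through wild type to the double mutant. By median, Astl and Cd9 were higher in Dnmt3L-ADD than in wild type. Not every step from wild type was called. None of those to the double mutant was called against low-class wild-type FGOs or with the class as a covariate.

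If the mutations acted additively on the log2 scale, the double mutant would equal the sum of both single mutant differences. The contrast of the 4 genotypes that tests this was higher than 0 for Zp2 (1.295 ± 0.16, adjusted p = 1.6e-07), Cd9 (1.17 ± 0.27, adjusted p = 0.00103), Zp3 (0.84 ± 0.11, adjusted p = 2.7e-07), Astl (0.80 ± 0.18, adjusted p = 0.000883) and Zp1 (0.78 ± 0.11, adjusted p = 1.94e-06). Izumo1r did not pass (0.10 ± 0.09, adjusted p = 0.407). Of all genes 19.3% were called higher in this contrast. With mapped class as a covariate the 3 zona genes kept their calls, while Astl (0.56, adjusted p = 0.0738) and Cd9 (0.65, adjusted p = 0.159) did not.

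Other oocyte genes differed in the direction of the members in several comparisons. All 8 oocyte markers tested were higher in the double mutant than in Dnmt3a-ADD FGOs (16% of all genes), and 7 of 8 against Dnmt3L-ADD (12.8%). Against wild type 5 of 8 were lower in Dnmt3a-ADD (7.61% of all genes) and 4 in Dnmt3L-ADD (3.06%). Only 1 was higher in the double mutant (5.51%). Their summed level ran from 10120 to 10960 CPM in the double mutant, from 7057 to 8710 CPM in Dnmt3a-ADD, from 7515 to 9331 CPM in Dnmt3L-ADD and from 7533 to 10690 CPM in wild-type FGOs. In MII it was 8658 to 9186 CPM, and 1 marker was higher and 2 lower. Of 12 granulosa markers tested 6 were lower and 1 higher in the double mutant, 3 lower and 1 higher in Dnmt3a-ADD, 2 lower in Dnmt3L-ADD, and 7 lower and 1 higher in MII. Over all genes 6.74% were lower in the double mutant and 22.6% in MII. The granulosa sum ran from 127 to 236 CPM in wild-type FGOs, from 119 to 162 CPM in Dnmt3L-ADD, from 120.5 to 192 CPM in Dnmt3a-ADD, from 133 to 156 CPM in the double mutant and from 116 to 140.5 CPM in MII. Most of it came from Nr5a2, with means of 86.3 CPM in wild-type FGOs, 93.8 in the double mutant and 83.5 in MII. Inha had means of 9.82, 0.893 and 0.142 CPM in these groups, and Hsd3b1 16.4, 1.26 and 1.57. Of 3 theca markers tested all were lower in the double mutant and in MII, 2 in Dnmt3a-ADD and 1 in Dnmt3L-ADD, with summed medians of 11.6 CPM in wild type, 7.05 in Dnmt3L-ADD, 4.34 in Dnmt3a-ADD, 2.23 in the double mutant and 1.29 in MII. Insl3 was at a median of 0 in all 5 groups. Endothelium and blood markers had summed medians of 83.6 CPM in wild-type FGOs (66.4 in the low and 87.2 in the high mapped class), 67.1 CPM in the double mutant and 87.8 CPM in MII, most of it from Pecam1, and Hba-a1 and Hbb-bs were at medians of 0. Their part in the members' differences was not tested.

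Of 6 listed regulators of the zona genes 5 could be tested, and Sohlh1 was too low. Figla had 17.8, 23.1 and 39.2 CPM in wild-type FGOs and 27.3, 30.4 and 45.2 CPM in the double mutant, where it was higher (0.38 ± 0.11, adjusted p = 0.0221), the 1 call of 5. It was not called in Dnmt3a-ADD (-0.28 ± 0.11, adjusted p = 0.0869) or Dnmt3L-ADD FGOs (-0.19 ± 0.11, adjusted p = 0.321). In MII it had 14.2, 17.8 and 19.6 CPM and was lower (-0.54 ± 0.10, adjusted p = 4.61e-05), as was Tcf12 (-0.38), while Tcf3 (0.17) and Lhx8 (0.10) were higher. Lhx8, a homeobox factor of early oocytes, was also higher in both single mutants (0.14 and 0.11), the 1 call of 5 in each. Nobox, another homeobox factor, was called in none of the 4 comparisons with wild-type FGOs. Between mutants, Figla (0.66), Tcf12 (0.59) and Nobox (0.24) were higher in the double mutant than in Dnmt3a-ADD FGOs, and Figla (0.57) and Tcf12 (0.44) than in Dnmt3L-ADD FGOs. The non-additive contrast called these 3 higher and Lhx8 lower (-0.19). All double mutant FGOs were of the low mapped class. Calls of list and marker genes are given only from fits to all libraries, so the part of mapped class in them is not shown.

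Genes that work beside Cd9 and Izumo1r on the egg membrane showed no common direction. Of 11 listed partners 9 could be tested, and the folate receptor genes Folr1 and Folr2, relatives of Izumo1r, were not. In MII the integrin genes Itga6 (0.23) and Itga9 (0.27) were higher, and Itgav (-0.80), the tetraspanin gene Cd81 (-0.74) and Ptgfrn (-0.55), whose product binds CD9 and CD81, were lower. Ptgfrn was also the 1 partner called in Dnmt3a-ADD FGOs (-0.73, adjusted p = 0.0460), and the tetraspanin gene Cd151 (0.17, adjusted p = 0.0442) the 1 called in the double mutant. In the double mutant 3 of 9 were higher and 2 lower than in Dnmt3a-ADD FGOs, and 1 higher and 1 lower than in Dnmt3L-ADD FGOs. The non-additive contrast called 3 higher and 1 lower. In each, 1 was over 2-fold higher. Mean Ptgfrn was 65.1 CPM in the double mutant, 25.1 in Dnmt3a-ADD and 27.9 in Dnmt3L-ADD FGOs. Of all genes 16%, 12.8% and 19.3% were called higher in these contrasts. The median over the 9 partners in MII was -0.07, beside -0.05 over all genes tested and -0.42 over the 6 members.

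Of 7 genes for the GPI anchor, which JUNO needs to reach the membrane, 2 were called in comparisons with wild-type FGOs. Pigu, a subunit of the transamidase that attaches the anchor, was higher in the double mutant (0.28, adjusted p = 0.00919) and lower in MII (-0.63), and Piga, which starts anchor synthesis, was higher in MII (0.29). The other 5 were called in none of these 4 comparisons. Pigu, Pigs and Pgap1 were higher in the double mutant than in Dnmt3a-ADD FGOs (0.26, 0.45 and 0.46) and than in Dnmt3L-ADD FGOs (0.30, 0.35 and 0.42), and all 3 were higher in the non-additive contrast. Genes of cortical granule exocytosis, by which ovastacin leaves the egg, had 5 of 12 higher and 1 lower in MII, led by Rab3a (0.47), a GTPase of secretory vesicles. Snap23 (-0.25) and Syt1 (-0.39), of the fusion machinery, were lower in the double mutant, and Stx4a (0.28) was the 1 gene called in Dnmt3a-ADD FGOs.

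The egg activation list holds genes linked to the response of the egg to fusion with the sperm. Of 10 tested, 6 were higher in MII, where 16.5% of all genes were, among them Wee2 (0.29), Slc39a6 (0.23) and Camk2g (0.20), which encodes the calcium-dependent kinase of egg activation. The 2 that were lower included Trpm7 (-0.66), a channel gene with a product in calcium entry. The other was Stim1, lower by over 2-fold, with means of 5.10 CPM in wild-type FGOs and 2.10 CPM in MII. Cacna1h (0.21) and Orai1 (0.37) were called in the double mutant and Camk2g (0.13) and Itpr1 (0.16) in Dnmt3a-ADD, all higher. The part of mapped class in these calls is not shown. In the double mutant 3 were higher and 2 lower than in Dnmt3a-ADD FGOs, and 3 higher and 1 lower than in Dnmt3L-ADD FGOs. In each, 1 was over 2-fold higher, and 16% and 12.8% of all genes were called higher. The non-additive contrast called 3 higher and 3 lower. No gene of the membrane, anchor, exocytosis or activation lists was called in Dnmt3L-ADD FGOs by edgeR, and DESeq2 called 0 as well, although 6 of the 38 tested had an unadjusted p under 0.05.

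**Figure D5:**
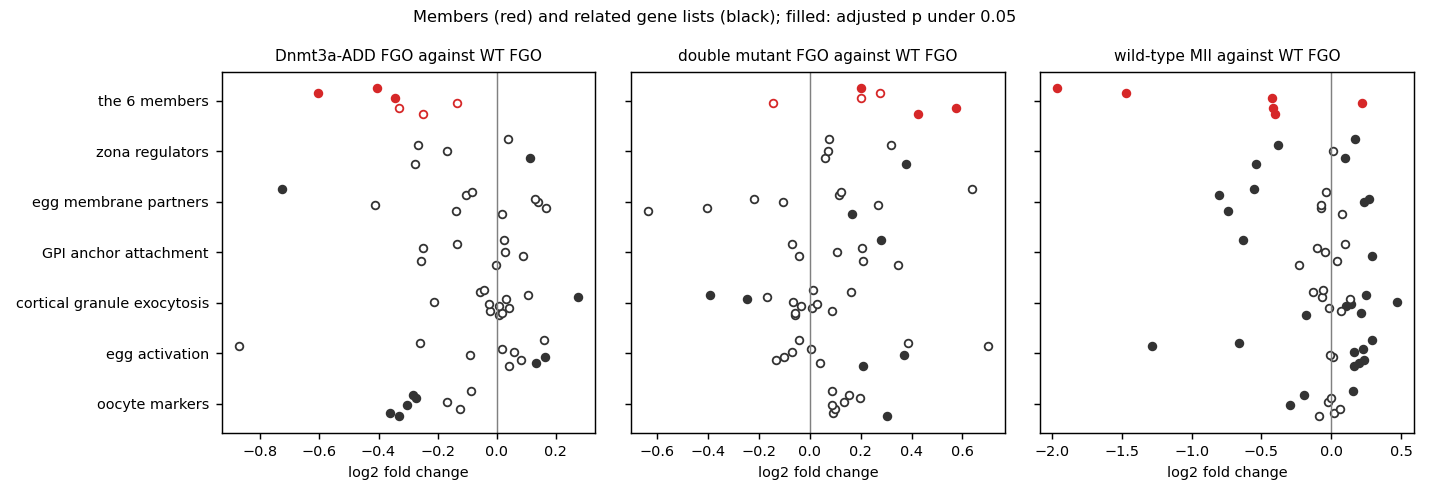
Log2 fold change (x axes, each panel on its own scale) of the 6 members (red) and of the genes of 6 related lists (black, 1 row per list) in Dnmt3a-ADD FGOs, double mutant FGOs and MII oocytes against wild-type FGOs, filled where the adjusted p was under 0.05. In MII Zp3 (-1.96) and Zp2 (-1.47) lie left of every list gene shown, and 5 of 8 oocyte markers are filled on the left in Dnmt3a-ADD.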

How the data were processed

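SMART-Seq HT libraries, each from 1 oocyte, were aligned by the authors to mm10 with STAR, and the deposited tables hold raw featureCounts counts per gene, neither normalised nor pooled. The annotation release and strand setting are not given in the sources used here. Embryo libraries, and 8 columns of other samples in the allelic tables, were not used.

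The 6 members, the related lists and the markers were chosen with earlier results of these data known. Counts were scaled by TMM, filtered with filterByExpr (minimum count 10) and tested with the quasi-likelihood test of edgeR 4.0.16 (limma 3.58.1, R 4.3.3), in 1 fit of 42 FGO libraries (15726 genes) and 1 of 52 oocyte libraries (15784 genes). Calls needed a Benjamini-Hochberg adjusted p under 0.05 over all genes tested. Values per length used the exon length in the tables. Ratios were tested by permutation (scipy 1.17.1), exactly for the mutants. Genes named were the members, up to 5 genes of lowest p per list and comparison with Figla always, and the 3 of highest r with each member (log2 CPM, pseudocount 0.5). On simulated counts edgeR found 189 of 195 changed genes for the double mutant contrast (15280 genes, 6 wrong calls). For MII it found 194 of 196 (15209 genes, 12 wrong calls). At a log2 fold change of 1 edgeR found 83 of 89 and 92 of 94 in these contrasts, and at 2 it found 106 of 106 and 102 of 102. Recovery at smaller fold changes, or with a mapped class that differs between groups, was not tested. Alternatives were DESeq2 1.42.0, relative log expression factors, library totals, no filter, 2-group fits, mapped class as a covariate or limit, the replicate block, a 2-fold limit and leaving out each library. Fits within 1 mapped class were added after the data were seen.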

Additional observations from a re-analysis of the deposited data

Results flagged for a closer look

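MII replicate 8 lay apart from the other 9 MII oocytes for 2 genes. Its Zp2 level was 656.8 CPM, with the next at 544.1 CPM, a gap of 0.491 of the whole range against a critical value of 0.466. Its Zp3 level was 297.8 CPM, with the next at 226.6 CPM, a gap of 0.625 of the range. These were 2 of 24 sets of values examined, and chance marks about 1 in 20. Both values stayed below every wild-type FGO.

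The effect of one mutation differed with the other mutation present, by a test of that difference in edgeR over the 42 FGOs. On the log2 scale the difference was 0.7774 for Zp1, 1.295 for Zp2, 0.8432 for Zp3, 0.7997 for Astl and 1.172 for Cd9, with adjusted p between 1.6e-07 and 0.00103. The mapped class moves with genotype here, and its part in these values was not tested beyond the fit with the class as a covariate, where Astl (adjusted p = 0.0738) and Cd9 (adjusted p = 0.159) did not pass.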

How the results depend on the processing

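Counts of members called moved as follows, and the causes were not tested beyond what each setting leaves out. The share of all genes called is given only for the fits to all libraries at the main settings. In Dnmt3L-ADD FGOs 3 calls became 0 with a 2-fold limit or mapped class as a covariate, and 1 with no filter, only 2 groups in the fit or high-class wild types. In Dnmt3a-ADD FGOs 3 became 0 with the 2-fold limit and 5 with low-class wild types. In the double mutant 3 became 0 with the 2-fold limit, the covariate, low-class wild types or low-class libraries alone, 1 with only 2 groups, and 6 with high-class wild types. In MII 6 became 2 with the 2-fold limit. With the covariate the non-additive contrast went from 5 to 3 and double mutant against Dnmt3L-ADD from 5 to 0. Leaving out 1 library gave 1 to 3 calls in Dnmt3L-ADD, 3 to 4 in Dnmt3a-ADD, 0 to 6 in the double mutant, 5 to 6 in MII and 6 to 8 called ratios of a main 7. Of 18 genes of nearest pattern 11 were also nearest by Spearman's rho.

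Replicate numbers were not taken to pair oocytes. The correlations of same-numbered libraries ran from -0.695 to 0.569. Between wild-type and Dnmt3a-ADD FGOs their median was 0.169, and -0.0201 for other numbers. Between wild-type and double mutant FGOs it was -0.193, and 0.00624 for other numbers. Whether a number marks a shared batch was not tested. With replicate numbers as a replicate block 5 members were called in Dnmt3a-ADD FGOs, 0 in the double mutant and 4 ratios.

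Directions turned only for values that did not pass in the fit to all libraries, although Cd9 passed against low-class wild types in both single mutants. Against wild type, with high-class libraries alone and with high-class wild types, these were Astl (0.0376 and 0.0412) and Cd9 (0.0914 and 0.095) in Dnmt3L-ADD, and Cd9 (0.133 and 0.029) in Dnmt3a-ADD. With library totals Izumo1r stood at 0.0487 in double mutant against Dnmt3a-ADD and 0.0144 against Dnmt3L-ADD, and with high-class libraries alone Cd9 stood at 0.0412 in Dnmt3a-ADD against Dnmt3L-ADD. With high-class wild types Zp1 to Zp3 differed by -0.00605 in Dnmt3L-ADD and by -0.0118 in the double mutant. Leaving out 1 library moved Izumo1r between -0.0261 and 0.0187 (double mutant against Dnmt3a-ADD) and between -0.0517 and 0.0012 (Dnmt3a-ADD against Dnmt3L-ADD), and Zp1 to Zp3 between -0.0159 and 0.0194 (Dnmt3L-ADD) and between -0.00388 and 0.0109 (double mutant). Among all single values recomputed with every library kept, 372 held direction and call, 14 newly passed the threshold and 47 no longer did.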
